A study of Mus musculus with 3 samples.

Results

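The miRNAs described here are the 5p arms of the consecutive run miR-6896 to miR-7093, taken as every non-control entry of the mouse array from miR-6896-5p to miR-7093-5p whose name ends in -5p. This gave 200 miRNAs of 1881 on the array, read by 410 probes. They were measured in exosomes, small vesicles that cells release, collected by ultracentrifugation from the medium of mesenchymal stem cells (MSCs), plastic-adherent stromal cells cultured from the bone marrow of male wild-type C57BL/6 mice aged 4 to 6 weeks and used at passages 3 to 6. The cells of N-Exo had been kept for 24 h in normoxia, those of H-Exo for 24 h in hypoxia, and those of H+G-Exo for 24 h in hypoxia with GW4869, which inhibits neutral sphingomyelinase, an enzyme that helps vesicles bud into the cell's endosomes. The cultures were grown in medium with fetal bovine serum, the oxygen level and the GW4869 dose are not given in the sources used here, and no group received GW4869 in normoxia, so GW4869 was seen only on top of hypoxia. Each group was 1 array. No comparison below has a replicate check, no test between groups was possible, and the SD given after ± was taken over the spots of a probe within its array and so covers technical error only.

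A mirtron is a miRNA precursor that is itself a short intron. The splicing machinery cuts it out, the lariat is opened, and the resulting hairpin goes straight to Dicer without the Drosha step that ordinary miRNA precursors need. In a tailed mirtron only 1 end of the hairpin is a splice site, and the rest of the intron is trimmed away. Introns begin with GU and end with AG, and the pyrimidine-rich stretch before the AG gives the 3p arm of such hairpins its C and U and leaves G and A to the 5p arm that pairs with it. Many late-numbered mouse miRNAs were annotated from sequencing reads of such introns.

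RefSeq sequences of the GRCm38.p6 build were found for 176 of the 200 members. The following mature sequences, written 5′ to 3′ with the seed (bases 2 to 8) in capitals, belong to the brightest members and to those that differed most between arrays.
miR-6931-5p: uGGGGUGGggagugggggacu
miR-7036a-5p: aGCGGGGUucgguggggaagaga
miR-7047-5p: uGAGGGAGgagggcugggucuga
miR-7084-5p: uAGAGGAUagagguagagagu
miR-7058-5p: uAGAGGGGaggugaccguggaagu
miR-6934-5p: uUGGUGGAgacagcaagggugg
miR-6939-5p: cAGGCAGCugguugguggaag
miR-6908-5p: uUGCCUGUcagggagagcccca
miR-7078-5p: uGUGGGUGguaggagacgcu
miR-7039-5p: aGAGGGAUggagagcaucgcgu
miR-7063-5p: aUGAGAGGugcaggcugagcaca
miR-6996-5p: uGCACAGGacagagcacaguc
They held 28.6% to 66.7% G, against 4.76% and 13.0% in a pair of 3p arms shown for comparison.
miR-6931-3p: cCCAACCUcuucauaccccag
miR-7036a-3p: cCGUCCUCauccgcuccucccag
The hairpins of miR-7058 and miR-7036a show both ends of the precursor, with the last bases in capitals where they match the AG at the end of an intron.
miR-7058 hairpin: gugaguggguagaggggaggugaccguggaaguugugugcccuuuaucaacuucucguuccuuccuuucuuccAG
miR-7036a hairpin: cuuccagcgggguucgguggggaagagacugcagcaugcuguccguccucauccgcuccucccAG
The miR-7058 hairpin begins with GU and ends with AG, as a whole intron does, and the miR-7036a hairpin has the AG only.

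The members named most often below lie within the spans of protein-coding genes. miR-6931-5p lies at chr11:102999896-102999916 on the minus strand, within Dcakd, and miR-7036a-5p at chr5:137296661-137296683 on the minus strand, within Srrt, which encodes a partner of the nuclear cap-binding complex that takes part in miRNA processing. miR-7058-5p is at chr7:126368013-126368036 on the minus strand, within Lat, the adaptor of T-cell receptor signalling, and miR-6934-5p at chr11:119154111-119154132 on the minus strand, within Tbc1d16, which encodes a regulator of Rab GTPases. miR-7084-5p is at chr9:22113988-22114008 on the minus strand, within Elof1, a transcription elongation factor gene. miR-7078-5p is at chr8:117459270-117459289 on the plus strand, within Cmip, and miR-7039-5p at chr5:144896790-144896811 on the minus strand, within Smurf1, a ubiquitin ligase gene. miR-6939-5p is at chr12:112659327-112659347 on the minus strand, within the kinase gene Akt1, and miR-6908-5p at chr10:78445131-78445152 on the minus strand, within the pyridoxal kinase gene Pdxk. miR-6996-5p is at chr2:26470094-26470114 on the minus strand, within the receptor gene Notch1, and miR-7063-5p at chr7:141620706-141620728 on the plus strand, within the clathrin adaptor gene Ap2a2. These positions are those of GRCm38.p6, and whether each falls in an exon or an intron was not analysed here.

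The sequences carried the marks of an intron mainly at their 3' end. Of 178 hairpins of the run with a sequence, 165 (92.7%) ended in AG, against 73 of 827 other mouse hairpins (8.83%), and all 178 lay within the span of a protein-coding gene, against 57.3% of the others. A start in GU was less common, in 27 of the 178 (15.2%) against 50 of 827 (6.05%), and 21 hairpins (11.8%) had both ends of an intron, against 9 (1.09%). Their median length was 66 bases, against 82. The 5p arms had a median G content of 43.7% and a median C content of 13.6%, while their 3p arms had 14.3% G and 40.9% C, and miRNAs outside the run 26.1% and 22.7%. A run of 4 G (GGGG) was present in 67 of 176 members (38.1%), in 2 of 174 of the 3p arms (1.15%) and in 113 of 1258 miRNAs outside the run (8.98%).

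The stromal label was checked against 20 miRNAs typical of mesenchymal cells, of which N-Exo had 20, H-Exo 18 and H+G-Exo 19 detected. Their summed scaled signal was 473.8, 215.7 and 93.5 in that order, or 21.5%, 9.18% and 4.75% of the miRNA signal. Of 7 blood cell miRNAs 3 were detected on each array, at no more than 0.113% of the signal, with miR-144-3p, miR-150-5p and both miR-142a arms not detected, and the endothelial, neuronal and epithelial markers were not detected on any array. Of 2 liver miRNAs 1 was detected in N-Exo only, and of 4 muscle miRNAs 2, 1 and 2 were, at no more than 0.00728% of the signal. The signal at the 75th percentile of the array, by which each array was scaled, was 417.3, 235.0 and 468.9 in the same order. The lower signal of the 20 stromal miRNAs therefore ran alongside each of the comparisons below, and its part in them was not tested. All miRNAs outside the members with probes under 50% GC also had negative median log2 differences there (-0.74, -1.08 and -1.89). Whether the fall was particular to stromal miRNAs was not tested.

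Detection means that the scanner software's flag put over 50% of a probe's spots well above background, for at least 1 probe of the miRNA. The 5p arms were detected more often than other miRNAs on every array. In N-Exo 109 of 200 members (54.5%) were detected, against 581 of 1681 other miRNAs (34.6%). In H-Exo the counts were 102 (51.0%) against 487 (29.0%), and in H+G-Exo 118 (59.0%) against 561 (33.4%). The 3p arms of the same run lay on the other side of that background, with 36, 22 and 36 detected of 198 (18.2%, 11.1% and 18.2%). The same members were mostly seen on each array: 100 were detected on all 3, 78 on none, 12 in H+G-Exo only, 5 in N-Exo and H+G-Exo, 3 in N-Exo only, 1 in H-Exo and H+G-Exo and 1 in N-Exo and H-Exo. Members seen on 1 array only were dim there. For example, miR-6968-5p, detected in H+G-Exo, had scaled signals of 0.0437 ± 0.0102, 0.0568 ± 0.0210 and 0.105 ± 0.00908, and miR-6953-5p, detected in N-Exo, had 0.0472 ± 0.00894, 0.0533 ± 0.0315 and 0.0320 ± 0.0108, in the order N-Exo, H-Exo and H+G-Exo, which is kept below.

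Within a hairpin the 5p arm was the one seen. Of 198 hairpins with both arms on the array, the 5p arm alone was detected for 87, 91 and 94 in the order of arrays above, and the 3p arm alone for 15, 12 and 13. Both arms were detected for 21, 10 and 23, and neither for 75, 85 and 68. Where a hairpin had both arms measured on both arrays of a comparison, the arms differed in the same direction for 10 of 10 hairpins with hypoxia, for 3 of 10 with GW4869 added to hypoxia and for 5 of 15 with both set against normoxia, over differences that were mostly under 2-fold. Such signs depend on the scaling and on the common shift of each list. With hypoxia, 95 of 100 members and 22 of 22 3p arms had log2 differences above 0. The counts were 43 of 100 and 1 of 22 with GW4869 added, and 68 of 105 and 2 of 29 against normoxia. The sign counts therefore cannot show whether the arms of a hairpin moved together. Arms differ in probe sequence, so a brighter 5p arm on the array gives no ratio of molecules.

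The members held 12.8%, 15.3% and 16.8% of each array's summed miRNA signal, as a share within each array that does not depend on scaling. They were 15.9%, 17.2% and 17.5% of the detected miRNAs. The 3p arms held 0.209%, 0.221% and 0.223%. Before scaling, the members' signals summed to 118044, 84326 and 155283, and those of all other miRNAs to 802955, 467720 and 766953. The members' sum was thus lowest in H-Exo and highest in H+G-Exo, while that of the other miRNAs was highest in N-Exo. For comparison, the classical mirtron miR-1224-5p read 210.3, 424.4 and 422.3 in scaled signal and made up nearly all of the 9.55%, 18.1% and 21.5% held by 8 classical mirtron arms, of which miR-877-5p (0.333, 0.373 and 0.354), miR-877-3p and miR-702-3p were the other ones detected.

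A few members carried most of that share. The brightest 3 held 50.7%, 43.5% and 53.4% of the members' signal and the brightest 10 held 76.4%, 74.3% and 74.2%, while the median detected member read 0.255, 0.419 and 0.276 in scaled signal. Scaled signal is a probe's mean over spots relative to the 75th percentile that the array's commonly detected probes gave, and since probes differ in how well they bind, the order of members is an order of signals, not of molecules. Detected members ranged from 0.0472 to 61.6, from 0.0776 to 65.2 and from 0.0427 to 86.7. Of the 100 brightest miRNAs of each array, 17, 23 and 24 were members, beside their 15.9%, 17.2% and 17.5% of the detected miRNAs. The count in N-Exo was thus near that share.

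miR-6931-5p was the brightest member in N-Exo and the 9th brightest miRNA there, with 61.6 ± 3.41, 50.5 ± 3.54 and 47.0 ± 5.22. Its scaled signals in H-Exo and H+G-Exo overlapped within their spot SDs, and both were below N-Exo. The overlap depended on the scaling, since its unscaled signals were 25700, 11857 and 22060, with H-Exo apart as the lowest. miR-7036a-5p read 48.1 ± 2.09, 65.2 ± 1.48 and 86.7 ± 2.77, with no overlap between arrays, and was the brightest member of both hypoxic arrays. miR-7047-5p read 19.8 ± 0.430, 34.7 ± 0.587 and 43.2 ± 1.83, and miR-6937-5p, from the gene Adi1, read 8.28 ± 0.179, 14.8 ± 0.326 and 20.8 ± 0.157. All 3 had their highest signal in H+G-Exo, before scaling too. For miR-7036a-5p and miR-7047-5p the order of N-Exo and H-Exo turned with the scaling, since their unscaled signals of 20056, 15323 and 40646 and of 8258, 8153 and 20266 were lowest in H-Exo. miR-7084-5p went the other way with GW4869, at 33.7 ± 1.63, 40.6 ± 2.24 and 12.7 ± 0.877. miR-6996-5p read 11.7 ± 0.252, 17.0 ± 0.502 and 5.24 ± 0.184, and miR-7007-5p, from the mast cell protease gene Cpa3, read 8.03 ± 1.30, 10.0 ± 1.36 and 3.67 ± 0.555. miR-6917-5p read 10.5 ± 3.87, 17.2 ± 5.54 and 4.52 ± 1.69, with the widest spot SDs of the group. For these 4 the H+G-Exo signal was the lowest of the 3, before scaling too, and in scaled signal it lay below both others by more than their spot SDs.

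**Figure D1:**
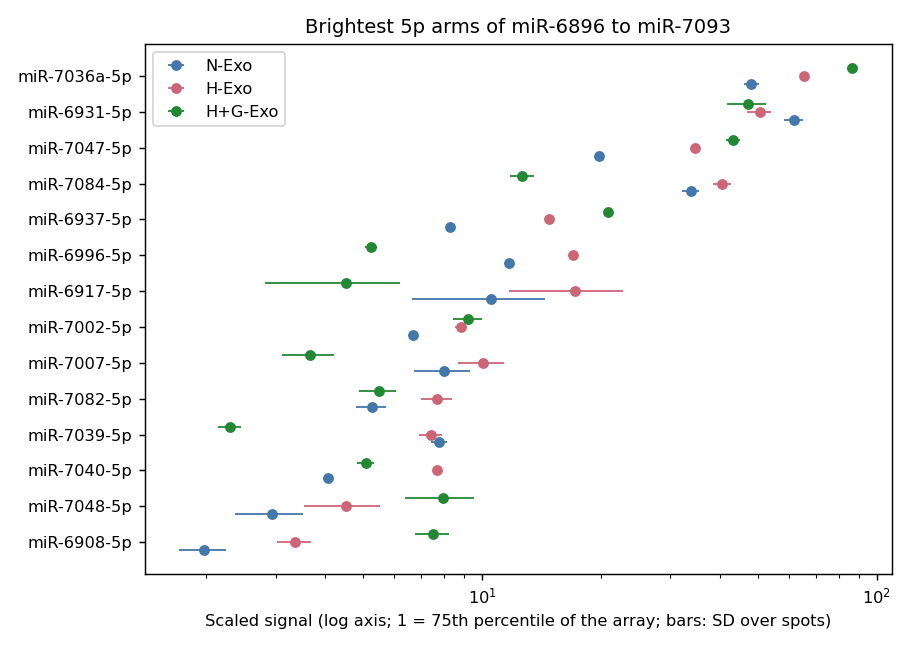
Scaled signal (log axis, 1 being the 75th percentile of the array) of the 14 members that were among the 10 brightest members of any array, with bars for the SD over spots on 1 array per group. miR-7036a-5p, miR-7047-5p and miR-6937-5p have their highest signal in H+G-Exo, while miR-7084-5p, miR-6996-5p, miR-6917-5p, miR-7007-5p and miR-7039-5p have their lowest signal there.

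Next among the brightest came members with smaller differences. miR-7002-5p, from the gene of the spliceosome-associated helicase Aqr, read 6.69 ± 0.121, 8.85 ± 0.316 and 9.23 ± 0.796, and miR-7082-5p read 5.26 ± 0.454, 7.69 ± 0.685 and 5.48 ± 0.582. miR-7040-5p read 4.07 ± 0.114, 7.71 ± 0.203 and 5.07 ± 0.244. Which array was highest depended on the scaling for miR-7082-5p and miR-7040-5p, while miR-7002-5p was highest in H+G-Exo both scaled and unscaled. In scaled signal miR-7002-5p was close in H-Exo and H+G-Exo and the other ones were highest in H-Exo, while the unscaled signals were highest in H+G-Exo, at 4329, 2568 and 2378.

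The effect of hypoxia was read from H-Exo set against N-Exo. A member was called higher or lower where its brightest probe was detected on both arrays, the signals differed at least 2-fold, and the difference exceeded 2 standard errors over spots. Of 100 members measured on both arrays 3 were higher in H-Exo, against 4.3% of all 582 measured miRNAs, and 0 were lower, against 10.7% of all, so the members' share of higher calls was near that background. The counts rest on a rule of size with no replicates behind it, and no p-value exists for them. miR-6956-5p, from Triobp, read 0.134 ± 0.0314 in N-Exo and 0.328 ± 0.0505 in H-Exo and was 2.44-fold higher. miR-6945-5p, from Pdlim7, read 0.0761 ± 0.0115 and 0.186 ± 0.0220, also 2.44-fold, and miR-7057-5p read 0.0915 ± 0.0312 and 0.191 ± 0.0710, 2.09-fold higher. All 3 were dim, and none of them passed the rule under all 7 ways of scaling the arrays. The main scaling gave the highest log2 difference of the 7 for each of them. The nearest member outside the rule was miR-6911-5p, with a log2 difference of 0.99, and the lowest of all was miR-6931-5p, at -0.29.

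The members as a whole lay close together in this comparison. Their log2 differences ran from -0.29 to 1.29 with a median of 0.47, against a median of 0.34 and a range of -2.33 to 2.68 over all miRNAs, and the members' median was -0.35 with no scaling and -0.37 with scaling to hybridization spike-ins, where the median of all miRNAs was -0.49 and -0.50. Relative to the median of all miRNAs the members' median was 0.13 higher, and 73 of 100 lay above it. The 62 miRNAs that were lower in H-Exo were all outside the members. Of the 22 measured 3p arms, 0 were lower too. The lower miRNAs were 40 of 109 others with probes under 50% GC and 21 of 144 at 50 to 60%. At 60 to 70% they were 1 of 129, and at 70% or more 0 of 100. Only 5 measured members had probes under 50% GC and 29 had 50 to 60%.

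**Figure D2:**
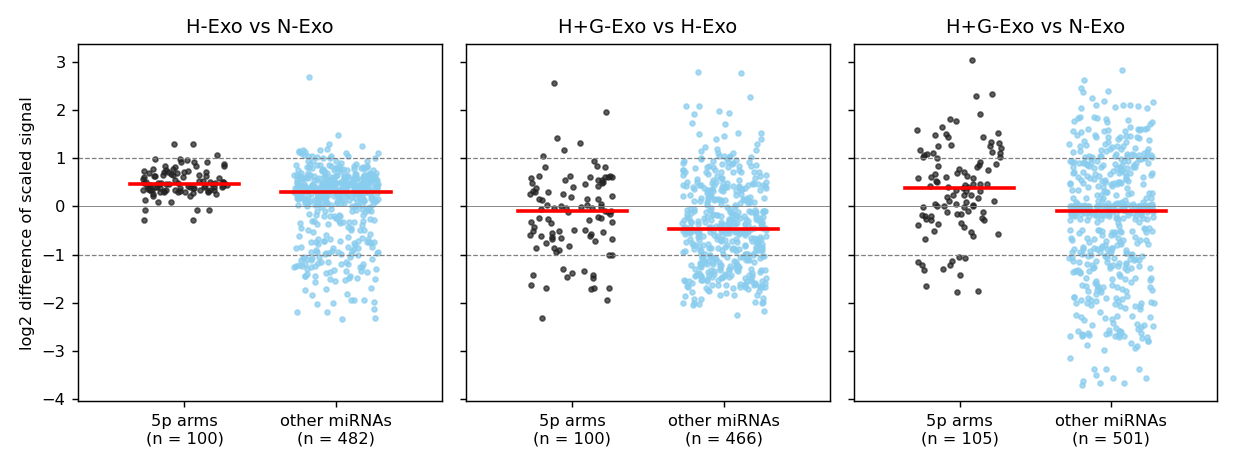
Log2 differences of scaled signal between arrays for the members (black) and for all other miRNAs (blue), 1 array per group, each point 1 miRNA detected on both arrays, with red lines for medians and dashed lines at 2-fold. In H-Exo against N-Exo the members lie between -0.29 and 1.29 and lack the low tail of the other miRNAs, and in both comparisons with H+G-Exo their median lies above that of the others. Of the others called lower in H-Exo, 40 had probes under 50% GC and 21 had 50 to 60%.

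The effect of GW4869 under hypoxia was read from H+G-Exo set against H-Exo, the array already used above. Of 100 members measured on both arrays 6 were higher in H+G-Exo, against 6.18% of all 566 measured miRNAs, and 16 were lower, against 26.1% of all. Under this scaling the share of higher members was at the background and that of lower members below it. The split depended on the scaling: it was 6 higher and 16 lower here, 10 and 13 with the 75th percentile over all probes, 12 and 13 with quantile normalization, 18 and 12 with the median, 28 and 7 by the labelling spike-ins, 39 and 3 by those for hybridization, and 43 and 1 with no scaling. It was 19 and 16 in the authors' deposited table.

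All 6 higher members passed the rule under all 7 scalings, but with normexp background correction the count was 3 higher and 7 lower. The main scaling gave the lowest log2 difference of the 7 for each called member. Higher members therefore had to stay 2-fold apart under the other scalings, and only lower ones could drop out. Passing under all 7 is thus no check of the higher calls. miR-7058-5p had the largest difference of any member, with a scaled signal of 0.140 ± 0.0342, 0.195 ± 0.0483 and 1.15 ± 0.229, the last 5.89-fold above H-Exo (log2 2.56, SE over spots 0.12). Before scaling its signals were 58.5, 45.8 and 537.9, so the high array was the same. miR-6934-5p read 0.161 ± 0.0235, 0.204 ± 0.0386 and 0.793 ± 0.0682 and was 3.88-fold higher (log2 1.96, SE 0.078). In both, H-Exo lay slightly above N-Exo, while H+G-Exo stood clear of both by more than the spot SDs. miR-6939-5p, within Akt1, read 0.0623 ± 0.0127, 0.123 ± 0.0283 and 0.330 ± 0.0667 and was 2.68-fold higher than in H-Exo. miR-6990-5p, within the nuclear receptor gene Esrra, read 0.228 ± 0.0439, 0.326 ± 0.0893 and 0.805 ± 0.193, 2.47-fold higher. miR-6908-5p was the bright one among them, at 1.98 ± 0.266, 3.36 ± 0.337 and 7.51 ± 0.755, 2.24-fold higher than in H-Exo. miR-6915-5p, at 0.0680 ± 0.0226, 0.103 ± 0.0457 and 0.212 ± 0.0729, was 2.06-fold higher and is the member just inside the rule, with miR-7044-5p (log2 0.95) just outside. H+G-Exo was the highest array for all 6, scaled or not. N-Exo lay below H-Exo in scaled signal, but before scaling it lay above H-Exo for all but miR-6939-5p (26.0 and 28.9).

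Of the 16 lower members, miR-7078-5p alone passed under all 7 scalings. It read 0.383 ± 0.0605, 0.607 ± 0.0623 and 0.122 ± 0.0242 and its signal with GW4869 was 4.99-fold lower (log2 -2.32, SE 0.083). miR-6917-5p was 3.82-fold lower, miR-7037-5p 3.29-fold, miR-7039-5p 3.24-fold, miR-6996-5p 3.24-fold and miR-7084-5p 3.21-fold. miR-7039-5p read 7.80 ± 0.363, 7.43 ± 0.495 and 2.30 ± 0.155, with N-Exo and H-Exo overlapping and H+G-Exo apart. Before scaling it read 3254, 1747 and 1076, with each array apart from the others. miR-7063-5p read 3.58 ± 0.188, 2.96 ± 0.299 and 1.06 ± 0.0932, 2.80-fold lower. miR-6985-5p, at 0.255 ± 0.0457, 0.339 ± 0.0649 and 0.110 ± 0.0252, was 3.08-fold lower. The remaining 8 were at most 2.74-fold lower, and of these miR-6901-5p had an H+G-Exo signal that had been raised to the floor of 0.0653 set for dim signals. miR-6916-5p, at the 2-fold line, was just inside the rule, and miR-6948-5p (log2 -0.94) just outside.

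**Figure D3:**
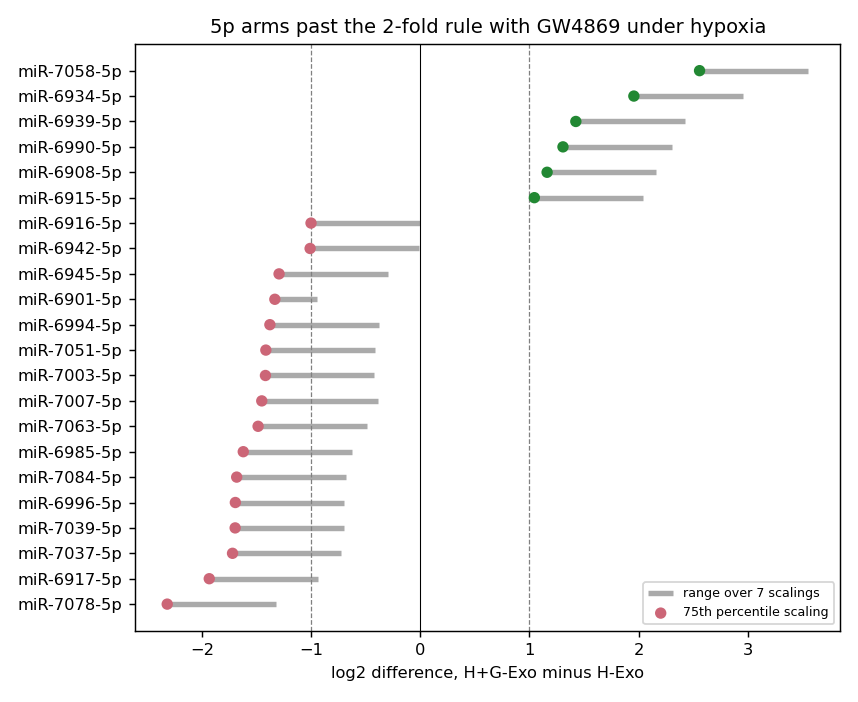
Log2 difference of H+G-Exo minus H-Exo for the 22 members past the 2-fold rule, 1 array per group, with points for the main scaling (green higher, red lower) and grey bars for the range over 7 scalings. The 6 higher members stay beyond the dashed 2-fold line over their whole range, and of the 16 lower ones miR-7078-5p alone does. Each bar starts at its point and runs only toward higher values, since the main scaling gave the lowest difference of the 7. The bars therefore do not check the higher calls.

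The members' median log2 difference was -0.10, against -0.42 for all miRNAs, a gap of 0.32 with 63 of 100 members above the median of all. The sign of the members' median was that of the scaling, since it was positive under each of the 6 other scalings and reached 0.90 with no scaling, where the median of all miRNAs was 0.57. A further 19 members were detected by their brightest probe on 1 of the 2 arrays, 18 of them in H+G-Exo. Over all miRNAs, 675 had their brightest probe detected in H+G-Exo, 586 in H-Exo and 566 on both. Detection on 1 array only was thus mostly in H+G-Exo over all miRNAs too. With the undetected side set to its own signal or the floor of 0.0653, whichever was higher, the largest bounds were those of miR-7085-5p, at least 3.05-fold higher in H+G-Exo, and miR-6964-5p, at least 1.37-fold lower. Against the lowest detected signal of H+G-Exo itself, which was under that floor, the bound of miR-6964-5p was 2.38-fold.

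The combined exposure was then set against normoxia, H+G-Exo against N-Exo, which shares an array with each of the other comparisons. Of 105 members measured on both arrays 27 were higher in H+G-Exo, against 18.3% of all 606 measured miRNAs, and 12 were lower, against 26.1% of all. All 27 higher members passed the rule under all 7 scalings, and 3 of the 12 lower ones did, miR-7039-5p, miR-7063-5p and miR-7078-5p. Here too the main scaling gave the lowest log2 difference of the 7 for each called member. The contrast between higher and lower calls was thus fixed by that scaling and is no check of the higher ones. With normexp background correction 12 were higher and 6 lower. The split was 38 higher and 5 lower with the median, 32 and 6 with quantile normalization, 40 and 4 with labelling spike-ins, and 47 and 6 in the authors' deposited table. Over all miRNAs the split was 111 higher and 158 lower, and 163 and 123 with the median.

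miR-7058-5p again had the largest difference, 8.19-fold. It was followed by miR-6939-5p, 5.05-fold higher, by miR-6934-5p with 4.91-fold, and by the 3.80-fold of miR-6908-5p and the 3.54-fold of miR-6990-5p. The N-Exo signals of miR-6939-5p and of miR-7085-5p (3.43-fold) had been raised to the floor, so these folds understate the measured ratio. miR-7046-5p read 0.327 ± 0.0323, 0.644 ± 0.0501 and 0.941 ± 0.0663, 2.88-fold higher in H+G-Exo than in N-Exo, and miR-7072-5p read 0.0866 ± 0.0158, 0.160 ± 0.0466 and 0.245 ± 0.0192, 2.82-fold higher. miR-7044-5p (2.73-fold), miR-7048-5p (2.71-fold), miR-6937-5p (2.51-fold) and miR-7047-5p (2.18-fold) were bright members with scaled signals over 1 in H+G-Exo. miR-7068-5p (log2 1.02) was just inside the rule, and miR-6978-5p, at 1.99-fold, just outside. On the lower side miR-7039-5p was 3.40-fold lower, miR-7063-5p 3.39-fold, miR-7078-5p 3.14-fold, miR-7084-5p 2.67-fold and miR-7003-5p 2.50-fold, and the remaining 7 were 2.05-fold to 2.45-fold lower.

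The members' median log2 difference was 0.37, against -0.05 for all miRNAs, and 72 of 105 members lay above the median of all. Their median was positive under each of the 7 scalings. A further 17 members were detected on 1 of the 2 arrays, 13 of them in H+G-Exo. Over all miRNAs, 675 had their brightest probe detected in H+G-Exo, 685 in N-Exo and 606 on both, so detection in N-Exo only was slightly more common there. None of the 17 members had a bound of 2-fold against the floor of 0.0653. The largest was at least 1.90-fold for miR-6906-5p, followed by miR-6968-5p with 1.60-fold. Against the lowest detected signal of N-Exo itself, these bounds were 2.75-fold and 2.32-fold. The summed signal of the stromal miRNAs given above was lower in H+G-Exo than in N-Exo over the same 2 arrays, and its part in these differences was not tested.

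Detection of the members followed the GC content of their probes. The brightest probe of a member had a median GC content of 60%, against 56.7% for the 3p arms and 52.9% for all 1681 other miRNAs, 3p arms included, and a median length of 15 bases. In N-Exo 6 of 29 members with under 50% GC were detected (20.7%), 33 of 70 with 50 to 60% (47.1%), 53 of 78 with 60 to 70% (67.9%) and 17 of 23 with 70% or more (73.9%). The corresponding shares were 17.2%, 44.3%, 64.1% and 69.6% in H-Exo and 24.1%, 48.6%, 74.4% and 82.6% in H+G-Exo. miRNAs outside the run were also detected more often from bin to bin, from 23.1% to 75.6%, from 18.2% to 73.3% and from 18.6% to 83.2% on the 3 arrays. The lowest and the highest bins were thus close between members and other miRNAs, and the members' excess lay in the middle bins, such as 67.9% against 49.0% at 60 to 70% GC in N-Exo. The 3p arms stayed below both at equal GC, with 25.8% detected at 60 to 70% and 30.8% at 70% or more in N-Exo.

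**Figure D4:**
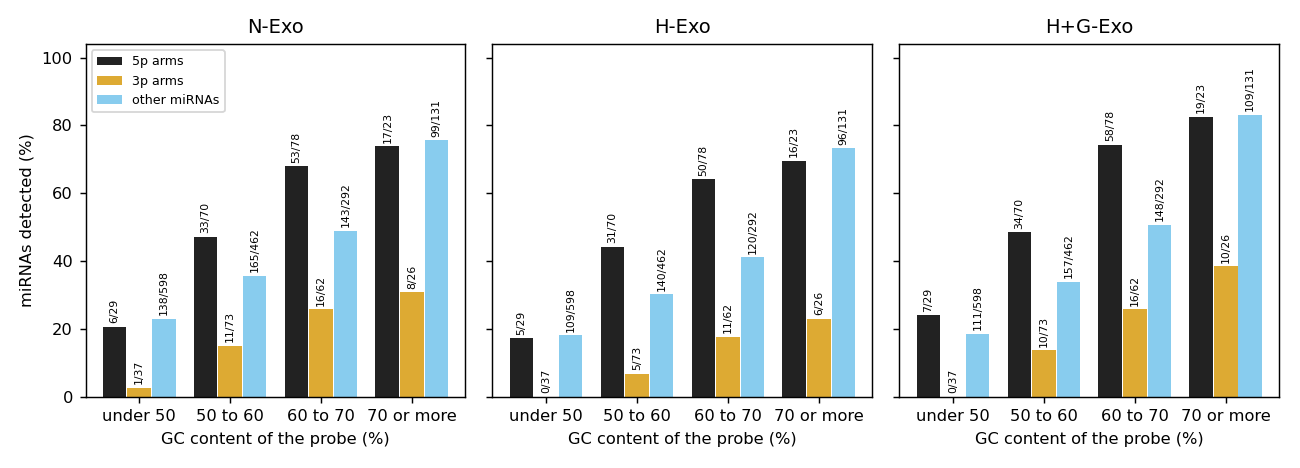
Percent of miRNAs detected on each array, 1 array per group, by the GC content of the probe, for the members (black), the 3p arms of the same run (yellow) and miRNAs outside the run (blue), with detected over total above each bar. Detection of the members climbs from 20.7% to 73.9% in N-Exo, while the 3p arms reach 30.8% in the same bins.

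The gradient followed G more than C. Members detected on all 3 arrays had a median G content of 47.6% (n = 89 with a sequence), and those detected on none 40.9% (n = 68), while their C content was 13.0% and 13.6%. In N-Exo detection went from 34.0% of 47 members with 30 to 40% G to 56.1% of 66 with 40 to 50% and 76.4% of 55 with 50% or more, and in H+G-Exo the last class reached 85.5%. Other miRNAs of like G content were detected as often or more often, with 39.4%, 65.9% and 87.1% in the same classes of N-Exo. Of the 3p arms, 168 of 174 had under 30% G, and 19.0% of these were detected in N-Exo, against 26.2% of the 782 miRNAs outside the run in that class. In each of these 3 classes of N-Exo the members' share was below that of miRNAs outside the run. Exceptions to the gradient existed among bright members, since miR-6996-5p had 28.6% G and miR-6908-5p 31.8%, and miR-7084-5p had no C at all and a probe of 47.4% GC.

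**Figure D5:**
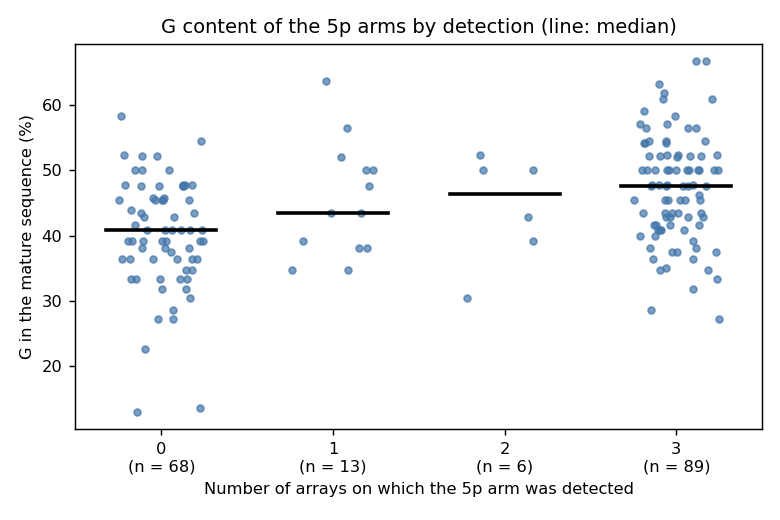
G content of the mature sequence (%) of the 176 members with a RefSeq sequence, by the number of arrays (of 3) on which each was detected, each point 1 member and lines for medians. The median is 40.9% for members detected on no array and 47.6% for those detected on all 3, with wide overlap between the classes.

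Among the detected members, the tie between GC and brightness was weak. The Spearman correlation of probe GC with log2 scaled signal was 0.24 (N-Exo, n = 109), 0.24 (H-Exo, n = 101) and 0.27 (H+G-Exo, n = 118), over members that share 1 array and its labelling, and for all other miRNAs it was -0.04, 0.03 and 0.10. With the G content of the mature sequence it was 0.22, 0.23 and 0.28 for members, and 0.26, 0.27 and 0.41 for all other miRNAs. With C content it was -0.26, -0.24 and -0.30 for members, and -0.29, -0.26 and -0.30 for the others. The ties to G and to C were thus not particular to the members. The members' signal was concentrated in the bin of 60 to 70% GC, which held 6.49%, 8.71% and 11.0% of the miRNA signal of the 3 arrays. The bin under 50% GC held 1.64%, 1.86% and 0.780%, of which miR-7084-5p gave 93.3%, 93.0% and 82.5%.

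Differences between arrays also varied with GC, more so outside the members. The correlation of probe GC with the log2 difference was 0.12 for members and 0.47 for other miRNAs in H-Exo against N-Exo (n = 100 and 482), 0.21 and 0.44 in H+G-Exo against H-Exo (n = 100 and 466), and 0.24 and 0.52 in H+G-Exo against N-Exo (n = 105 and 501). Other miRNAs with probes under 50% GC had median log2 differences of -0.74, -1.08 and -1.89 in the 3 comparisons, and those at 70% or more had 0.45, -0.04 and 0.56. The members in the latter bin had 0.59 (n = 16), -0.10 (n = 16) and 0.48 (n = 17), and those at 60 to 70% had 0.44, 0.02 and 0.46, where the other miRNAs had 0.38, -0.32 and 0.00. At 50 to 60% GC the members had 0.45, -0.51 and -0.01 (n = 29 in each), and the other miRNAs 0.19, -0.52 and -0.50. The medians of H+G-Exo against H-Exo were thus close in that bin. Only 5, 5 and 6 members with probes under 50% GC were measured. The low-GC class, in which other miRNAs had negative medians, was thus nearly empty among the members. In H+G-Exo against N-Exo, 7 of the 17 members at 70% GC or more were higher and 0 were lower, beside 31 and 11 of 105 other miRNAs in that bin. The larger bins had calls both ways. At 60 to 70% GC 15 of 53 members were higher and 7 lower, beside 32 and 16 of 142 other miRNAs. At 50 to 60% the counts were 4 and 4 of 29 members, beside 19 and 48 of 150.

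The probes read the 3' part of each miRNA. All 360 member probes with a mature sequence matched it without a mismatch and reached its last base, and the first base they covered had a median position of 9 (range 2 to 14), so that 186 of them covered no base of the seed and 1 covered all of it. None of the 360 matched another of the 1608 mature miRNAs of the array that had a sequence, and the rest could not be searched. For miR-7058-5p the probe was acttccacggtcacc, which pairs with the miRNA from base 10 to its end, and for miR-7084-5p it was actctctacctctatcctc, from base 3. Where several probes of a member were detected on both arrays, the signs of their differences were compared. They disagreed for 3 of 79 members with hypoxia, 9 of 79 with GW4869 added and 8 of 83 with both set against normoxia. Among called members with such probes they disagreed for 0 of the 1, 14 and 31. The probes share an array and its scaling, and 95 of 100 members lay above 0 with hypoxia. Called members were at least 2-fold apart, while the median range between probes was 0.10, 0.13 and 0.15 log2. Disagreement was therefore unlikely from the start, and these counts are no independent check of the calls.

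The members did not form seed families of any size. The 176 sequences had 155 different seeds, 18 of which were shared by 39 members, at most 3 to a seed, and miR-7058-5p, miR-6931-5p, miR-7036a-5p and miR-6934-5p shared theirs with no other member. Members with 1 seed could differ widely in signal: miR-7047-5p (19.8, 34.7 and 43.2) and miR-6965-5p (0.570, 0.718 and 0.858) share the seed GAGGGAG, and miR-7005-5p (3.04, 4.05 and 3.27) shares CUGGGGA with miR-6975-5p, which was not detected on any array. miR-6990-5p and miR-7032-5p, which share CCAGGGU, were both higher in H+G-Exo than in N-Exo, at 3.54-fold and 2.25-fold. miR-6916-5p and miR-6942-5p share AGGAGGA, and both were barely past the 2-fold line on the lower side with GW4869. Each passed under 1 of the 7 scalings, and before scaling their signals were alike (78.8 and 78.6 for miR-6916-5p).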

How the data were processed

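RNA of exosomes from 3 groups of MSC cultures was hybridized to 3 one-colour mouse miRNA arrays, 1 per group, with groups taken from the treatment in the labels. Having 1 array a group limits all precision. The series' design mentions 3 samples per exosome type, and whether they were pooled is not stated. The labels' protocols name a cRNA amplification kit, unusual for miRNA arrays, so the labelling is uncertain.

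The deposited scanner files hold background-subtracted intensity values per spot, made with Agilent Feature Extraction 10.7.1.1 per the submitters' processing notes. The deposited value table was read as log2 values. How it was normalized is not given, and it served only as an alternative.

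Of 58594 spots per array, 2164 control spots and 1568, 1369 and 1466 outlier spots (N-Exo, H-Exo, H+G-Exo) were left out, and 0 spots were saturated. Each member probe kept 8 to 15 spots, with median coefficients of variation of 18.2%, 19.4% and 17.8% over detected probes. Spot means were scaled to each array's 75th percentile, taken over those probes that all arrays detected. A floor of 0.0653 (each array's lowest detected signal was found, and the highest of these taken) was applied before log2. Bounds against this floor were added after the data were seen. A miRNA took its brightest probe. Python 3.11.15 and limma 3.58.1 (normexp, an alternative) were used, and the calling rule was tested on simulated data.

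Named members were the 4 markers of the set (miR-7058-5p, miR-6931-5p, miR-7036a-5p, miR-6934-5p), the 10 brightest of each array, the 10 largest differences and 5 largest bounds each way per comparison, and those nearest the 2-fold line. Others named served as examples of shared seeds, chosen after their values were seen. The members and lists were chosen with earlier results of these data known. Members without a RefSeq sequence here were miR-6905-5p, miR-6906-5p, miR-6917-5p, miR-6920-5p, miR-6935-5p, miR-6950-5p, miR-6951-5p, miR-6952-5p, miR-6953-5p, miR-6954-5p, miR-6957-5p, miR-6970-5p, miR-6971-5p, miR-6972-5p, miR-6979-5p, miR-6980-5p, miR-6981-5p, miR-6982-5p, miR-6983-5p, miR-7006-5p, miR-7023-5p, miR-7040-5p, miR-7042-5p and miR-7064-5p.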

Additional observations from a re-analysis of the deposited data

How the results depend on the processing

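Other scalings, background corrections and probe summaries were run on the counts of members past the rule. In H-Exo against N-Exo the 3 higher and 0 lower members became 0 higher and 2 lower with no scaling and with hybridization spike-ins, 0 higher with labelling spike-ins and with normexp background correction, and 13 higher in the authors' deposited value table. In H+G-Exo against H-Exo the 6 higher members became 10, 18, 12, 43, 39 and 28 (75th percentile over all probes, median, quantile, no scaling, hybridization and labelling spike-ins), 3 with normexp and 19 in the deposited table, and the 16 lower ones became 1 with no scaling, 3 and 7 with hybridization and labelling spike-ins and 7 with normexp. In H+G-Exo against N-Exo the 27 higher members became 12 with normexp and 47 in the deposited table, and the 12 lower ones 5 (median), 6 (quantile), 4 (labelling spike-ins), 6 (normexp) and 6 (deposited table). Measured relative to all miRNAs, the members' median in H+G-Exo against N-Exo was 0.062 with normexp and 0 with no filter on dim probes. The members' share of signal was 14.1% in N-Exo with the probes of a miRNA summed, and with the software's total gene signal it was 13.4% (H-Exo) and 15.8% (H+G-Exo). The correlation of GC with log2 signal was 0.062, 0.10 and 0.14 with the GC content of the mature sequence and 0.39, 0.41 and 0.46 with no filter on dim probes, and that of GC with the log2 difference was 0.33 (H-Exo against N-Exo) and 0.10 (H+G-Exo against H-Exo) with no filter. The cause of these changes was not tested. The other 90 summary values kept their direction and stayed within a set tolerance, which does not mean that they were unchanged. It was 0.1 for correlations, and the spread over spots for shares of signal and relative medians. For counts it was loose. In H+G-Exo against N-Exo it let 27 higher members become 40 with labelling spike-ins. In H+G-Exo against H-Exo it let 16 lower ones become 12 with the median. Of the single members' log2 differences 688 moved by less than their spread over spots and 452 by more. None of the 480 values of members past the rule changed sign, but 95 of the 660 values of members not past it did, 24 of them in H-Exo against N-Exo with no scaling and 25 there with hybridization spike-ins. Members past the rule were at least 2-fold apart by definition, which made a change of sign unlikely from the start. Their unchanged signs are therefore no check of the calls. No paired analysis was possible because each group is 1 array and the labels carry no replicate numbers. The floor of 0.0653 is the lowest detected signal of H-Exo, so dimmer signals that N-Exo and H+G-Exo could detect were raised to it.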

Other observations

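Among the members that were higher with GW4869, miR-7058-5p and miR-6939-5p share the letters GUGGAAG near their 3' ends, a match found after their values were seen. Of the 1608 mature miRNAs with a sequence, 6 hold these letters (0.373%), in the sense orientation in which mature sequences were searched. Of the others, miR-7014-5p read 1.27 ± 0.313, 1.60 ± 0.534 and 1.12 ± 0.192 in N-Exo, H-Exo and H+G-Exo, miR-7036b-5p and miR-1958 were not detected, and miR-6537-3p was detected in H+G-Exo only, at 0.133 ± 0.0358. miR-6934-5p and miR-6939-5p share UUGGUGGA, at the start of the former and the end of the latter, with miR-3101-3p, which was not detected.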
